A study of Mus musculus with 14 samples.

Results

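A set of 6 genes of insulin signalling, from the receptor to the insulin-responsive glucose transporter, was followed in bone marrow adipose tissue of mice: Insr, Irs1, Irs2, Pik3r1, Akt2 and Slc2a4. They were taken by symbol, and all 6 were among the 23441 genes of the deposited matrix and among the 17494 genes that passed the filter on low counts. Marrow plugs flushed from distal tibiae of a pair of mice were pooled for each of the 14 libraries. The mice were males of the strain C57BL6/SJL, 24 weeks of age, and had either free access to food (ad libitum, AL) or 30% caloric restriction (CR) for 6 weeks. BMAd-Pnpla2+/+ mice gave 4 AL and 4 CR libraries, and BMAd-Pnpla2-/- mice gave 3 AL and 3 CR libraries. All mice carried Osterix-FLPo and the FLPo-activated Adipoq-Cre, and the knockouts had floxed Pnpla2 alleles in addition, so the controls shared the Cre alleles. Cre was thereby limited to bone marrow adipocytes and some stromal cells, and other cells of the plug kept Pnpla2, which encodes adipose triglyceride lipase. The Adipoq-Cre insertion lowers adiponectin protein in mice of either genotype.

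Insulin binds the insulin receptor, a tyrosine kinase that phosphorylates insulin receptor substrates (IRS proteins). These recruit phosphoinositide 3-kinase (PI3-kinase), whose lipid product leads to activation of Akt. In adipocytes and muscle fibres, Akt2 then causes vesicles with the glucose transporter Glut4 to move to the cell surface. Transcripts of several of these genes are known to change with feeding state, and FoxO transcription factors, which Akt keeps out of the nucleus, are among the regulators of Insr and Irs2.

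Libraries held 18898324 to 21665553 gene counts without regard to strand. Of gene reads with a strand, 4.30% to 4.62% lay on the first strand in the libraries of 3 groups, and 50.1% to 50.5% in the 3 BMAd-Pnpla2-/- CR libraries. The library type thus differed with that group. Its effect cannot be told apart from that of CR in knockout mice, of genotype with CR, or of the interaction of genotype and diet. The unstranded count of every library was used here for this reason. Pnpla2 lay between 509 and 1029 CPM (counts scaled to a common library size) in BMAd-Pnpla2+/+ CR libraries and between 180 and 271 CPM in BMAd-Pnpla2-/- CR libraries, a log2 fold change of -1.91 (SE 0.26, edgeR padj = 0.0387). That call was lost on leaving out any 1 of 8 libraries, with padj up to 0.220 without BMAd-Pnpla2-/- CR replicate 1. With AL feeding the ranges were 176 to 305 CPM and 133 to 172 CPM (log2 fold change -0.57, padj = 1). The 10 adipocyte markers were found in every group, as were abundant erythroid and leukocyte transcripts, so each library was a mixture of cells. In such bulk RNA, fewer cells of a type and less RNA per cell cannot be told apart.

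The start regions of Irs1 and Irs2 are shown because they share a pair of motifs near the start site. RefSeq windows (GRCm38.p6) reach from 250 bases before to 50 bases after an annotated start. They are printed 5′ to 3′ on the gene's own strand, the minus strand for both genes, at chr1:82291390-82291689 for Irs1 and chr8:11008880-11009179 for Irs2. Capitals mark CACGTG, an E-box, and TGTTTTG, the core of the insulin response element that FoxO factors are known to bind. In Irs1 the first TGTTTTG overlaps the E-box.

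Irs1: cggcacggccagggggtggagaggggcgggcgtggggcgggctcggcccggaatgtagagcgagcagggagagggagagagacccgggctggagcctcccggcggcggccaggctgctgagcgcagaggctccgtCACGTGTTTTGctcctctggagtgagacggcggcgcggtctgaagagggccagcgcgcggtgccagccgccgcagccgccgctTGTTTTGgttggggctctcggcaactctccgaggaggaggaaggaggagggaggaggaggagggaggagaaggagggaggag

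Irs2: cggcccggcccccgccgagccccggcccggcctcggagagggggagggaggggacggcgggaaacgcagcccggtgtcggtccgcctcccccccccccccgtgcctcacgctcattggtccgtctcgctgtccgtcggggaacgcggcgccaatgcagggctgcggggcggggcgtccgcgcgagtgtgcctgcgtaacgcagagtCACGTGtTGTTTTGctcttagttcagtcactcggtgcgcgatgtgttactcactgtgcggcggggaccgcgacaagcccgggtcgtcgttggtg

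The E-box begins at position -115 from the RefSeq start site in Irs1 and -44 in Irs2. TGTTTTG begins at -111 and again at -32 in Irs1 and at -37 in Irs2. For Irs2 the GENCODE M21 start, used for gene positions below, is at 11008458, so the whole window lies upstream of it. Searched on both strands, CACGTG was present in 7.15% and TGTTTTG in 6.28% of the 32851 RefSeq windows of this length. A FoxO consensus, GTAAACA, was searched as well. It was present in 3.65% of the windows and in none of those of Irs1, Irs2, Akt2 or Pik3r1. An E-box followed on the same strand by TGTTTTG was present, with the starts of the motifs at most 10 bases apart, in 9 windows (0.0274%). These belonged to 1700019P21Rik, Gm38926, Irs1, Irs2, Irs4, Klf11, Pcbp1 and Pyroxd1, and so held 3 genes for IRS proteins. The pair was not in the windows of Akt2 or Pik3r1. It was chosen after these sequences were seen, and a match of letters is a description and not evidence of binding. Windows for Insr and Slc2a4 were not used here.

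With CR in BMAd-Pnpla2+/+ mice, 5 of the 6 genes rose, and Akt2 was the exception. Slc2a4 (Glut4) rose 2.93-fold and Irs1 rose 3.47-fold, whereas Insr, Irs2 and Pik3r1 rose 1.32-fold to 1.46-fold. The share called in either direction among all genes tested was 26%, and the share called higher was 15%. The median log2 fold change of the 6 genes was 0.52, beside 0.00 for all genes. Here and below, a gene is said to have risen or fallen where padj from edgeR's quasi-likelihood test over the 17494 genes was under 0.05. The groups did not overlap for 4 of the 6 genes (Insr, Irs1, Irs2 and Slc2a4), all higher with CR, beside 12.3% of all genes in that direction.

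In BMAd-Pnpla2-/- mice, 4 of the 6 genes rose with CR: Slc2a4 2.01-fold, Irs1 2.28-fold, Insr 1.64-fold and Pik3r1 1.51-fold. Irs2 and Akt2 did not pass the test. Of all genes, 11.6% were called in either direction and 6.01% higher. The median log2 fold change of the 6 was 0.65, beside 0.05 for all genes. Counting either direction, the groups did not overlap for 5 of the 6 genes (4 higher with CR, and Akt2 lower), beside 37.8% of all genes. Leaving out 1 library at a time gave between 1 and 5 called genes of the 6. Slc2a4 was called each time, with padj up to 0.0326.

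**Figure D1:**
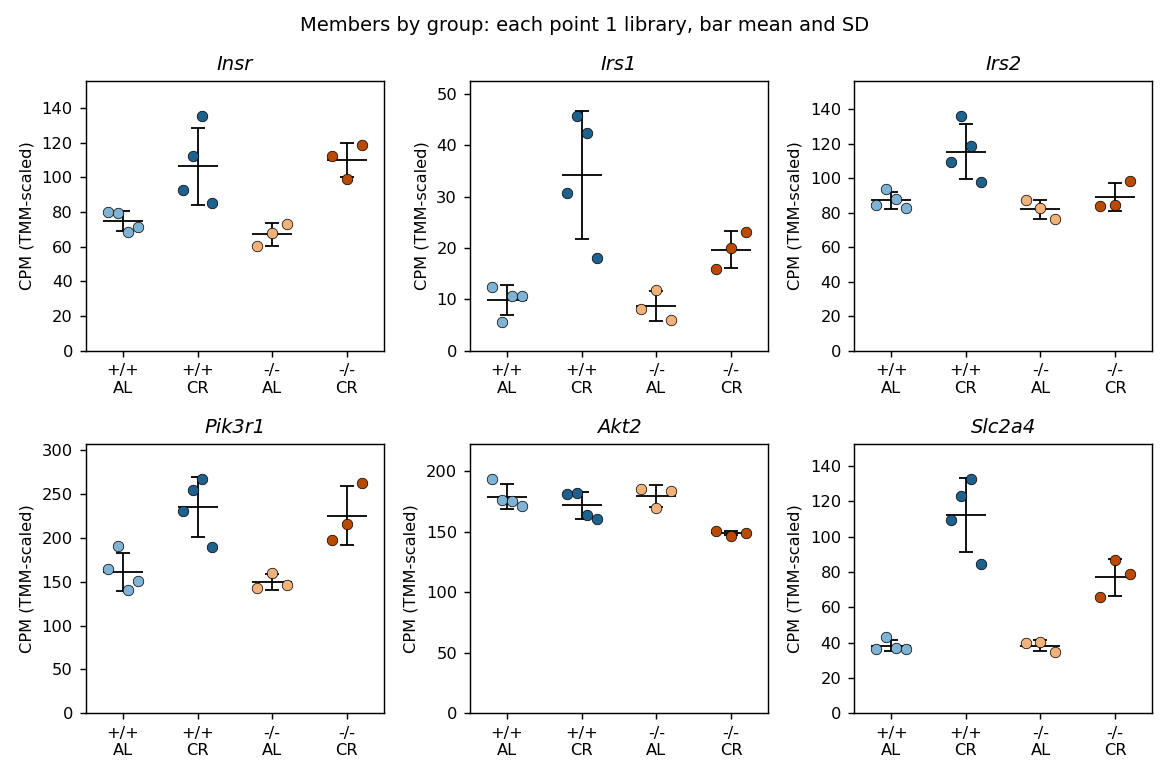
TMM-scaled CPM (vertical axes, from 0) of each gene in the 4 groups of genotype and diet (horizontal axes). Points are libraries, and the black bar and whiskers are the mean and SD (n = 4, 4, 3 and 3). Slc2a4 lay between 34.9 and 43.1 CPM in all 7 AL libraries and between 65.9 and 132.6 CPM in all 7 CR libraries. Akt2 lay between 146.9 and 150.8 CPM in the BMAd-Pnpla2-/- CR group and between 160.5 and 193.8 CPM in the other groups.

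Insr encodes the insulin receptor and lies on chromosome 8 at 3122061 to 3279617, on the minus strand (GRCm38, GENCODE M21; all 6 genes are placed by that release), with 23 merged exons. Its CPM values in BMAd-Pnpla2+/+ AL libraries 1 to 4 were 80.2, 79.3, 68.5 and 71.5. In BMAd-Pnpla2+/+ CR libraries 1 to 4 they were 92.7, 112.0, 135.2 and 85.2. Every CR library was above every AL library, but replicate 4 was only slightly above the highest of them. The log2 fold change was 0.51 (SE 0.13, padj = 0.0154), and without BMAd-Pnpla2+/+ AL replicate 3 the call was lost (0.43, padj = 0.0549). In the knockouts, Insr was at 60.3, 67.9 and 73.3 CPM in the AL and at 112.5, 98.9 and 118.5 CPM in the CR libraries. These groups were well apart, with a log2 fold change of 0.71 (SE 0.15, padj = 0.0140), and padj rose to 0.0686 without AL replicate 1 and to 0.0646 without CR replicate 3. Gene counts do not separate the receptor's splice forms.

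Irs1, on chromosome 1 at 82233101 to 82291416 (minus strand), encodes the substrate through which the receptor is known to act in muscle and adipocytes. It was at 12.4, 5.6, 10.8 and 10.6 CPM in the BMAd-Pnpla2+/+ AL libraries. With CR these libraries held 30.7, 45.7, 42.4 and 18.1 CPM. Replicate 4 was the lowest CR library and still above all AL libraries, and the log2 fold change was 1.80 (SE 0.31, padj = 0.00314). BMAd-Pnpla2-/- libraries held 8.0, 11.8 and 6.1 CPM with AL and 15.96, 19.99 and 23.1 CPM with CR. The groups did not overlap, and the log2 fold change of 1.19 (SE 0.36, padj = 0.0475) was just past the threshold. It lost its call on leaving out any 1 of 9 libraries, with padj up to 0.165 without AL replicate 3.

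The level of Irs1 is understated by unstranded counts, because 2822 of its 9144 exon bases are shared with Gm9747, a gene on the opposite strand, and reads there count for neither. In the 11 strand-specific libraries the unstranded count was 0.574 to 0.728 of the reverse-strand count. With reverse-strand counts, which those 11 libraries allow, the log2 fold change with CR in BMAd-Pnpla2+/+ mice was 1.72 (padj = 0.00607). The deposited matrix holds reverse-strand counts for these 11 libraries and unstranded counts for the BMAd-Pnpla2-/- CR libraries, and in it the change with CR in knockouts was 0.50 (padj = 0.304).

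Irs2, the substrate best known from liver and pancreatic islets, lies on chromosome 8 at 10984681 to 11008458 (minus strand). BMAd-Pnpla2+/+ libraries held 84.5, 93.5, 88.0 and 82.8 CPM with AL and 109.3, 136.0, 118.6 and 97.9 CPM with CR. All CR libraries were higher, and the log2 fold change was 0.41 (SE 0.10, padj = 0.0128). For knockouts the 87.5, 82.6 and 76.4 CPM with AL overlapped the 84.1, 84.7 and 98.6 CPM with CR. The log2 fold change there was 0.12, with a 95% interval from -0.13 to 0.36 (padj = 0.537). A noncoding gene on the opposite strand, 9530052E02Rik, shares 162 exon bases with Irs2, and the unstranded count was 0.944 to 0.981 of the reverse-strand count.

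Pik3r1, on chromosome 13 at 101680563 to 101768217 (minus strand), encodes the regulatory subunit p85 alpha of PI3-kinase and its shorter products, which a gene count does not separate. It was at 164.3, 190.1, 140.6 and 150.4 CPM in BMAd-Pnpla2+/+ AL and at 230.4, 254.2, 266.9 and 189.0 CPM in BMAd-Pnpla2+/+ CR libraries. CR replicate 4 lay just under AL replicate 2, so the groups overlapped, and the log2 fold change was 0.54 (SE 0.13, padj = 0.0103). BMAd-Pnpla2-/- libraries held 142.7, 159.8 and 146.0 CPM with AL and 197.3, 215.5 and 262.7 CPM with CR. These did not overlap, and the log2 fold change was 0.59 (SE 0.15, padj = 0.0233), with the call lost on leaving out any 1 of 4 knockout libraries and padj up to 0.112 without CR replicate 3.

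Akt2, on chromosome 7 at 27591552 to 27640826 (plus strand), encodes the Akt kinase needed for insulin-stimulated glucose uptake. Its BMAd-Pnpla2+/+ libraries held 193.8, 176.3, 175.5 and 171.4 CPM with AL and 181.0, 181.9, 164.2 and 160.5 CPM with CR. The groups overlapped, and the log2 fold change was -0.06 with a 95% interval from -0.22 to 0.09 (padj = 0.553). Among BMAd-Pnpla2-/- mice the AL libraries held 185.3, 169.6 and 184.0 CPM, and the CR libraries 150.8, 146.9 and 149.3 CPM. Every CR library was lower, with a log2 fold change of -0.27 (SE 0.08) and a padj of 0.0516, on the other side of the threshold by a small margin. It passed in 6 of the alternatives that kept all libraries, among them DESeq2 (-0.31, padj = 0.00263).

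Slc2a4 encodes Glut4 and lies on chromosome 11 at 69942539 to 69948188 (minus strand), with 9 merged exons. Its AL libraries were close together, at 36.6, 43.1, 37.2 and 36.6 CPM in BMAd-Pnpla2+/+ mice and 39.9, 40.1 and 34.9 CPM in knockouts. With CR, BMAd-Pnpla2+/+ libraries held 109.3, 123.1, 132.6 and 84.3 CPM. The lowest of them, replicate 4, was far above the highest AL library, and the log2 fold change was 1.55 (SE 0.13, padj = 5.15e-05). BMAd-Pnpla2-/- CR libraries held 65.9, 86.5 and 78.8 CPM, also above every AL library, for a log2 fold change of 1.01 (SE 0.15, padj = 0.00563). Slc2a4 and Irs1 were the members with a log2 fold change over 1 in both genotypes. Of all genes, 7.26% rose by more than this in the controls and 2.59% in the knockouts.

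**Figure D2:**
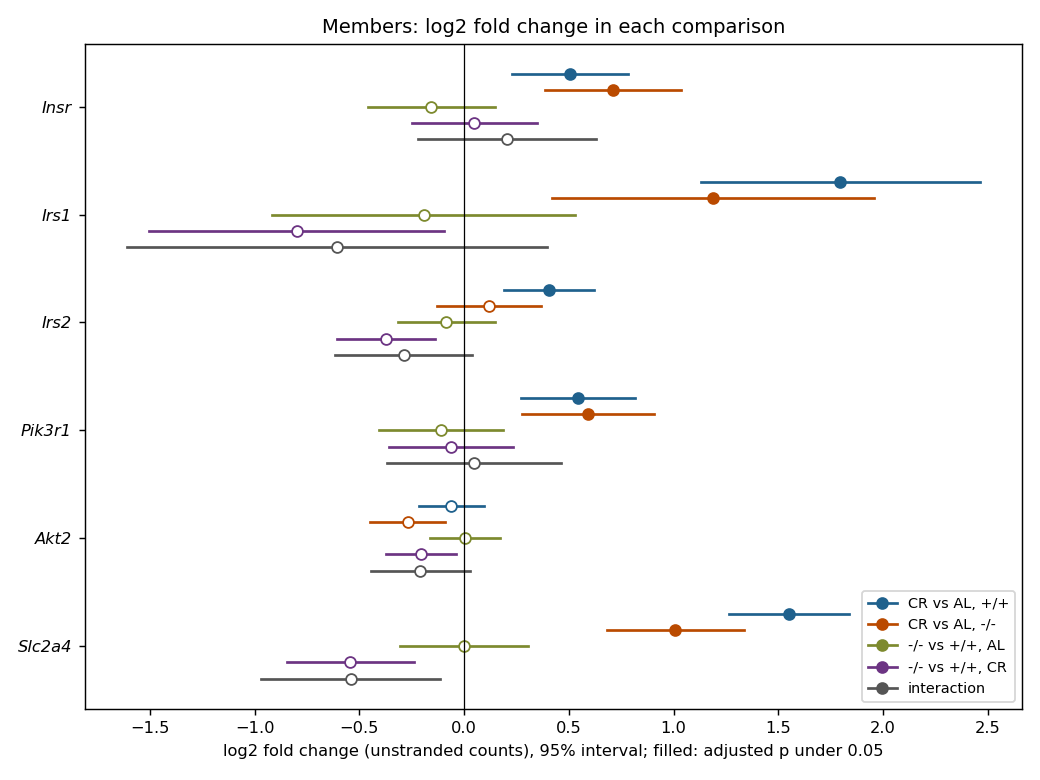
Log2 fold change (horizontal axis, unstranded counts) of each gene in the 5 comparisons, with its 95% interval. Filled points had padj under 0.05, and the interaction is the change with CR in BMAd-Pnpla2-/- minus that in BMAd-Pnpla2+/+ mice. Filled points are found in the 2 diet comparisons alone, and Slc2a4 has intervals from 1.26 to 1.84 and from 0.68 to 1.33 there.

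Between genotypes with AL feeding, none of the 6 genes was called, and neither was any of all genes tested (0%). At an unadjusted p under 0.05, edgeR gave 694 genes (3.97%), none of them a member, and DESeq2 called 19 genes after adjustment. Slc2a4 had a log2 fold change of 0.00 with a 95% interval from -0.31 to 0.30, and the interval of Akt2 was from -0.16 to 0.17. Irs1 was the least certain, at -0.19 with an interval from -0.92 to 0.53.

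Between genotypes with CR, none of the 6 genes was called, beside 0.0171% of all genes, which is 3 genes. These groups also differed in library type, whose effect cannot be told apart from that of genotype here. At an unadjusted p under 0.05 there were 4 of the 6 genes and 23.2% of all genes, each of the 4 with a negative log2 fold change. Slc2a4 was at -0.54 (SE 0.14, padj = 0.0722), Irs2 at -0.37 (SE 0.11, padj = 0.0856) and Irs1 at -0.80 (SE 0.33, padj = 0.172), all by edgeR. Akt2 was at -0.21 (padj = 0.148), and its genotype groups did not overlap, beside 16.8% of all genes. Insr and Pik3r1 were at 0.05 and -0.06, with 95% intervals from -0.25 to 0.35 and from -0.36 to 0.23. The result turned on 1 library: without BMAd-Pnpla2+/+ CR replicate 4, Slc2a4 (-0.66, padj = 0.0169), Irs2 (-0.45, padj = 0.0246) and Irs1 (-1.01, padj = 0.0397) were called, with 2092 of all genes. DESeq2 called Slc2a4 (padj = 0.00939), Irs2 (padj = 0.0189) and Akt2 (padj = 0.0276) with all libraries.

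Whether CR acted differently in the genotypes was tested by the interaction. It was past the threshold for none of the 6 genes and for 0% of all genes. The library type of the BMAd-Pnpla2-/- CR group enters the interaction and cannot be told apart from it. DESeq2 called 60 genes, and at an unadjusted p under 0.05 edgeR gave 1824 genes (10.4%). Slc2a4 was the member with an unadjusted p under 0.05 (-0.54, 95% interval from -0.97 to -0.11, padj = 0.395 by edgeR). For Irs2, which was called with CR in one genotype alone, the interaction was -0.29 (95% interval from -0.61 to 0.04, padj = 0.529), so its response is not shown to differ.

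Levels of different genes were compared per length, as RPKM, the CPM value divided by exon length in kilobases. In BMAd-Pnpla2+/+ AL mice the order was Akt2 with 25.14 ± 1.39, Pik3r1 with 16.01 ± 2.13, Irs2 with 13.79 ± 0.75, Slc2a4 with 11.03 ± 0.91, Insr with 5.45 ± 0.42 and Irs1 with 1.08 ± 0.32 RPKM (SD, n = 4). Pik3r1 and Irs2 were within their spread of each other, and the other neighbours were apart by more than their SDs. The order was the same in BMAd-Pnpla2-/- AL mice. With CR in BMAd-Pnpla2+/+ mice, Slc2a4 went from the fourth place to the first by its mean, with 32.30 ± 6.03 RPKM (SD, n = 4). Akt2 followed with 24.11 ± 1.56 and Pik3r1 with 23.33 ± 3.40, and these 2 did not differ beyond their spread. Libraries of Slc2a4 ran from 24.2 to 38.1 RPKM and overlapped those of Akt2 (22.5 to 25.5) and Pik3r1 (18.8 to 26.5). In BMAd-Pnpla2-/- CR mice, Pik3r1 with 22.34 ± 3.35, Slc2a4 with 22.16 ± 3.0 and Akt2 with 20.90 ± 0.27 RPKM (SD, n = 3) were within their spread of each other. Insr and Irs1 stayed in the last places in each group, and the value of Irs1 is too low for the reason given above. Akt1, which encodes the more widespread Akt kinase, was at 105.26 ± 8.67 RPKM in BMAd-Pnpla2+/+ AL mice (SD, n = 4), above Akt2.

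Other genes of the pathway were taken from lists by role. With CR, 26% of all genes were called and 15% were called higher in BMAd-Pnpla2+/+ mice. The shares in BMAd-Pnpla2-/- mice were 11.6% and 6.01%. At the receptor level, 5 of 12 tested genes rose with CR in BMAd-Pnpla2+/+ mice and none fell, with a median log2 fold change of 0.37. Beside the 3 members these were Sh2b2 (0.60, padj = 0.00971), an adaptor of the receptor, and Sos1 (0.27, padj = 0.0263), an exchange factor of Ras. Of the same 12, 2 rose in BMAd-Pnpla2-/- mice and Sh2b1 fell (-0.35, padj = 0.0496). Igf1r, the receptor of the related growth factor IGF-1, had log2 fold changes of -0.01 and 0.20, neither past the test, and its level per length in BMAd-Pnpla2+/+ AL mice was 7.47 ± 0.60 RPKM (SD, n = 4).

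Of 9 PI3-kinase genes, 2 rose with CR in BMAd-Pnpla2+/+ mice, Pik3r1 and the gene of another regulatory subunit, Pik3r3 (0.69, padj = 0.0257). Pik3cg, a catalytic subunit of blood cells, fell (-0.28, padj = 0.0351). These counts, and those of the Akt arm below, stand beside 26% of all genes called in the controls and 11.6% in the knockouts. The knockouts had Pik3r1 and Pik3r3 (0.82, padj = 0.0399) among the genes that rose, and 2 fell, among them Pik3cd (-0.47, padj = 0.0225), the catalytic subunit of leukocytes. Of 9 leukocyte markers, 5 fell with CR in BMAd-Pnpla2+/+ mice, with a summed level of 6765 to 8071 CPM in AL and 4183 to 5587 CPM in CR libraries. In the knockouts 2 of the 9 fell, and the sums overlapped, with 6167 to 6689 CPM in AL and 4794 to 6650 CPM in CR libraries. The part of leukocytes in these results was not tested. In the Akt arm, which holds the Akt kinases, their activators and the kinases and complexes downstream, 1 of 13 genes was called in BMAd-Pnpla2+/+ mice, Mlst8 (-0.37, padj = 0.0435), a shared subunit of the mTOR complexes, and none in BMAd-Pnpla2-/- mice, where 5 had an unadjusted p under 0.05.

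Among 15 inhibitors of the pathway, 5 rose and 1 fell with CR in BMAd-Pnpla2+/+ mice, beside 26% of all genes called. Pik3ip1, a membrane inhibitor of PI3-kinase, went from 23.5 ± 2.20 to 61.2 ± 1.80 CPM (SD, n = 4), a log2 fold change of 1.38 (SE 0.15, edgeR padj = 0.000284). Grb10, an adaptor that restrains the receptor, rose by 1.18 (padj = 0.00304) and Ptprf, a receptor-type phosphatase, by 1.05 (padj = 0.0145) on the log2 scale. In BMAd-Pnpla2-/- mice 2 rose, Pik3ip1 (1.20, padj = 0.00475) and Grb10 (0.86, padj = 0.0349), and Inpp5d, a lipid phosphatase of blood cells, fell (-0.39, padj = 0.0352). The median log2 fold change of the list was 0.18 in the controls and 0.05 in the knockouts, beside 0.00 and 0.05 for all genes.

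Of 17 genes of Glut4 traffic, 4 rose and 3 fell with CR in BMAd-Pnpla2+/+ mice, beside 26% of all genes called. Tbc1d4, the Akt substrate that holds Glut4 vesicles back until phosphorylated, rose (0.79, padj = 0.00969), as did Ralgapa2 (0.55, padj = 0.0126), and the related Tbc1d1 fell (-0.52, padj = 0.0349). With CR in knockouts, Lnpep, an aminopeptidase of the same vesicles, rose (0.72, padj = 0.0117), Rab14 rose (0.27, padj = 0.0459) and Stx4a, a surface membrane fusion protein, fell (-0.54, padj = 0.0116). Tbc1d4 was at 0.67 there with padj = 0.0546.

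Beside 26% of all genes called, 5 of 9 glucose transporter genes rose and 2 fell in BMAd-Pnpla2+/+ mice. Slc2a4 had the largest log2 fold change of them, followed, where genes averaged 50 counts or more, by Slc2a13 (1.06, padj = 0.0218), a transporter of myo-inositol, and Slc2a8 (0.88, padj = 0.00212), an intracellular transporter. Slc2a3, the transporter of neurons and leukocytes, fell (-0.59, padj = 0.0198), and Slc2a1, the transporter of most cells, was at 0.26 (padj = 0.105). In BMAd-Pnpla2-/- mice Slc2a4 was the 1 transporter that rose, and Slc2a6, of macrophages, fell (-0.86, padj = 0.0198). Slc2a6 was also the other transporter that fell in BMAd-Pnpla2+/+ mice (-0.78), from 48.5 ± 7.91 to 28.3 ± 5.37 CPM (SD, n = 4). The median of the list was 0.88 and 0.35.

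Of 9 genes for FoxO factors and their known targets, 4 rose and 1 fell in BMAd-Pnpla2+/+ mice, and 3 rose in BMAd-Pnpla2-/- mice. The shares of all genes called were 26% and 11.6%. Pdk4, which slows glucose oxidation, rose in both (2.38, padj = 0.00449, and 2.12, padj = 0.0234), as did Klf15, a transcription factor of fasting metabolism (2.30, padj = 0.000634, and 1.82, padj = 0.00944). Foxo1 was at 0.43 and 0.27 and was not called. With edgeR, no gene of the 7 pathway lists was called between genotypes with either diet or in the interaction, where 0, 3 and 0 of all genes were called. Of the members, DESeq2 called Slc2a4, Irs2 and Akt2 with CR, as given above.

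**Figure D3:**
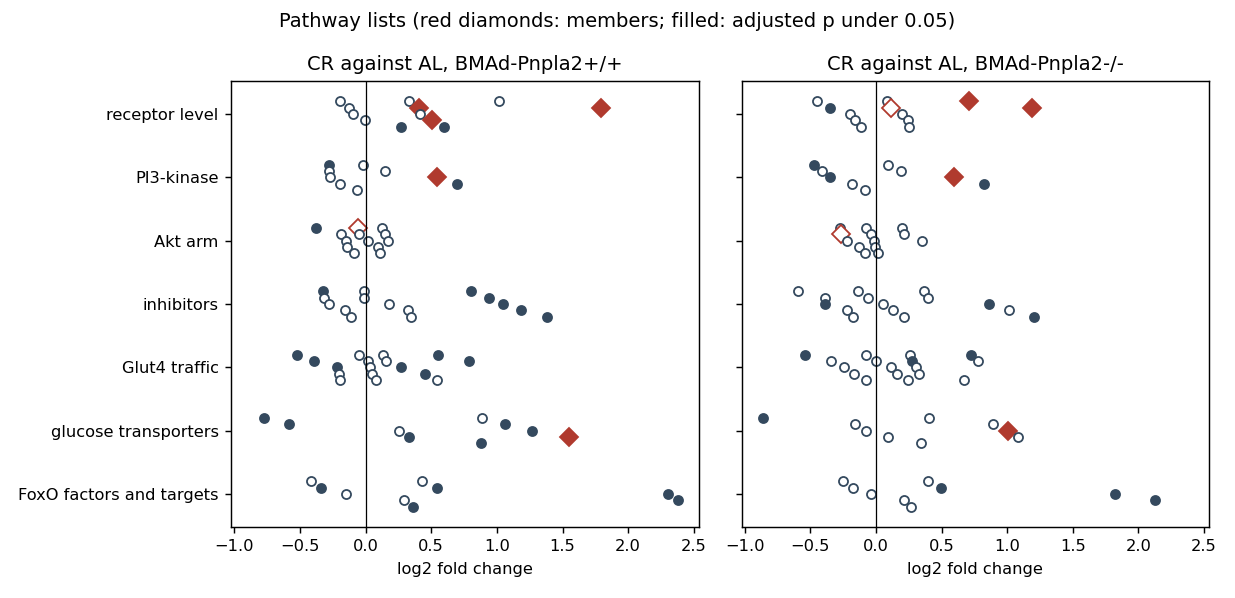
Log2 fold change with CR (horizontal axes) of the tested genes of 7 lists of the insulin pathway, in BMAd-Pnpla2+/+ (left) and BMAd-Pnpla2-/- mice (right). Each symbol is a gene, red diamonds are the 6 members, filled symbols had padj under 0.05, and the vertical position within a list has no meaning. Pdk4 and Klf15 lie farthest to the right, over 1.8 in both, and the Akt arm stays within 0.5 of 0.

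Adipocyte markers rose with CR as well: 10 of 10 in control mice (median log2 fold change 1.90) and 8 of 10 in knockouts (2.19). The shares of all genes that rose were 15% and 6.01%. Summed levels of the adipocyte markers follow. Their summed level was 826 to 1972 CPM in BMAd-Pnpla2+/+ AL, 2165 to 5307 in BMAd-Pnpla2+/+ CR, 453 to 906 in BMAd-Pnpla2-/- AL and 1403 to 2257 in BMAd-Pnpla2-/- CR libraries. BMAd-Pnpla2+/+ CR replicate 4, which was the lowest CR library of its genotype for each of the 6 genes, had the lowest marker level of its group, 2165 CPM. Among BMAd-Pnpla2+/+ AL libraries, replicate 1 had the highest marker level, 1972 CPM, with 36.6 CPM of Slc2a4, and replicate 2 had the lowest, 826 CPM, with 43.1 CPM of Slc2a4. Among BMAd-Pnpla2-/- AL libraries, replicate 2 had the highest marker level, 906 CPM, with 40.1 CPM of Slc2a4. Replicates 1 and 3 had marker sums of 453 and 482 CPM, with 39.9 and 34.9 CPM of Slc2a4. Their mean log2 marker levels were nearly equal, at 4.29 and 4.28. As deviations from group means over the 14 libraries, Slc2a4 had r = 0.575 with the adipocyte marker Plin1 and r = 0.625 with Cebpa. Its r was 0.622 with the stromal marker Cxcl12, -0.792 with the leukocyte marker Ptprc and 0.190 with the muscle marker Acta1. Irs1 was highest in replicate 1 and lowest in replicate 2 of the BMAd-Pnpla2+/+ AL group, at 12.4 and 5.6 CPM. Markers of other cells rose in BMAd-Pnpla2+/+ mice too, with 5 of 6 endothelial (median 0.77), 4 of 8 marrow stromal (0.68) and 3 of 6 osteoblast markers (0.82), and in BMAd-Pnpla2-/- mice with 0 of 6 (0.37), 1 of 8 (0.51) and 1 of 6 (0.35). The part of these cell types, adipocytes included, in the changes of the members was not tested.

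**Figure D4:**
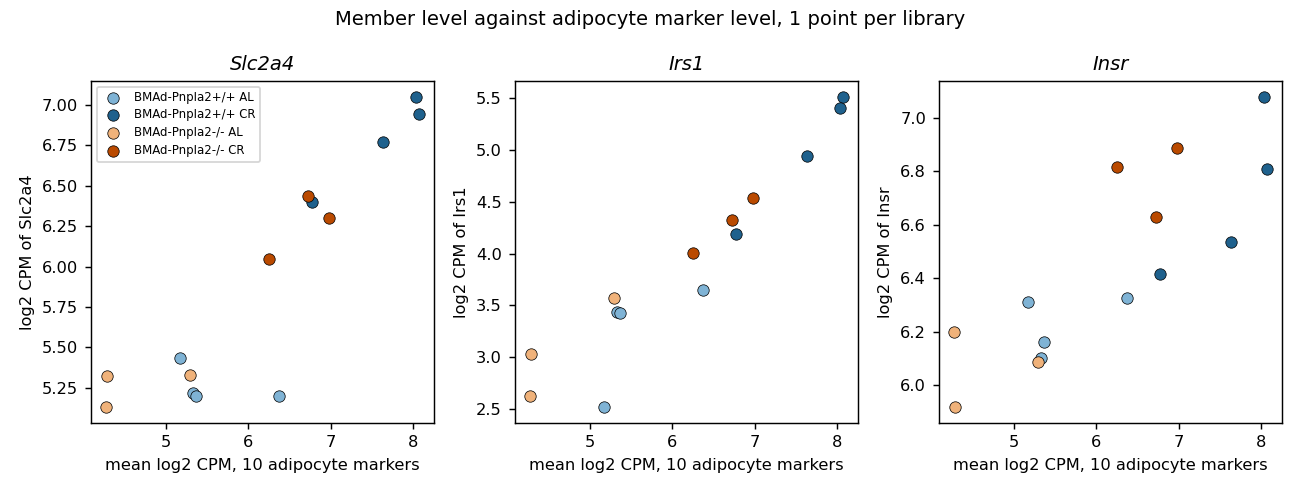
Log2 CPM (prior count 2) of Slc2a4, Irs1 and Insr (vertical axes) against the mean log2 CPM of 10 adipocyte markers (horizontal axes), with 1 point per library and colours for the 4 groups. For Slc2a4 the 7 AL libraries lie between 5.13 and 5.43 where the markers run from 4.28 to 6.37, and the CR libraries lie from 6.04 to 7.05.

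Skeletal muscle also expresses Slc2a4, and 7 muscle markers summed to 10.1 to 20.1 CPM in 11 libraries, 30.6 CPM in BMAd-Pnpla2+/+ AL replicate 2, and 45.6 and 124.4 CPM in BMAd-Pnpla2-/- CR replicates 2 and 3. Slc2a4 was 65.9 CPM in BMAd-Pnpla2-/- CR replicate 1, where the muscle markers summed to 13.6 CPM. Leaving out the 3 libraries of higher marker level left 1 knockout CR library, which was assumed to vary like the other groups, and 29 of all genes were called with CR in knockouts. The log2 fold changes there were 0.78 for Slc2a4, 0.74 for Insr, 0.88 for Irs1 and 0.40 for Pik3r1, none of them called, and with a single library a lost call says nothing about muscle. With the same libraries left out, 5 of the 6 members and 2295 of all genes were called in BMAd-Pnpla2+/+ mice, with Slc2a4 at 1.61. The part of muscle RNA in the changes of Slc2a4 was not tested.

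Genes with a pattern like that of each member were sought among the 12916 genes that averaged 50 counts or more, by Pearson's r of log2 CPM over the 14 libraries. The libraries share their group differences and cell mixtures, so r is a description. For Slc2a4 the nearest were Dusp18, Fam184a, Klf15, Mc2r and Pfkfb1, with r from 0.965 to 0.971. When deviations from group means were used, these had r = 0.774, 0.808, 0.765, 0.523 and 0.792 in that order. For Irs1 they were Fam160a1, Fzd1, Pou6f1, Slc36a2 and Ptpn21, and for Insr Lrrc58, Nbeal1, Prkci, Tbl1x and Zkscan7. Irs2 was most like Cachd1, Zfp316, Clcn7, Frs3 and Ctif, and Pik3r1 most like Acer2, Slc16a12, Ryk, Lgr4 and Osbpl1a. Akt2 had Ppp2r5d, Rabl6, Aldoa, Plod3 and Tfip11. No member was among the 5 nearest of another.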

How the data were processed

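RNA of 14 marrow plug libraries was sequenced, and the samples were grouped by the genotype and diet in their labels. The authors aligned read pairs to mm10 with STAR after FastQC 0.11.9, named DESeq2 among their tools, and deposited raw counts per gene: for each sample unstranded, first-strand and reverse-strand counts of 55401 genes, and 1 matrix of 23441 genes. Reads placed at several positions are in no count. The labels name a stranded library kit for all samples.

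The unstranded counts of the matrix genes were analysed in R 4.3.3 with edgeR 4.0.16: filterByExpr on the 4 groups kept 17494 genes, libraries were scaled by TMM, and 1 robust quasi-likelihood model of the 4 groups gave 5 two-sided comparisons, each adjusted by Benjamini and Hochberg. The SE is the size of the log2 fold change over the square root of F. CPM values are TMM-scaled, log2 CPM has a prior count of 2, and RPKM uses the union of GENCODE M21 exons. Totals of 18898324 to 21665553 counts per library set the counting precision. Nothing in the labels ties libraries to batches, and p-values measure the spread between pooled libraries.

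All 6 members are described in full. Of each list, at most the 3 called genes with the largest absolute log2 fold change and a mean of at least 50 counts were named by rule in each comparison. Igf1r, Akt1, Foxo1, Slc2a1, Slc2a3, Sos1, Slc2a6 in controls, and Tbc1d4 in knockouts, were added after their values were seen. The members and lists were chosen with earlier results of these data known. Among the genes of the pathway lists not tested, for low counts, were Irs4, Slc2a2, Slc2a5, Slc2a7 and Foxo6. Some list genes are not reported here by name.

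Alternatives were DESeq2 1.42.0, RLE size factors, total counts, no filter, the compared groups alone, the deposited matrix, reverse-strand counts, a replicate block, and leaving out each library. All genes of the per-sample files, the range of sample numbers as a factor, and leaving out the 3 libraries highest in muscle markers were added after seeing the data. On simulated counts of the 17494 genes for CR against AL in BMAd-Pnpla2+/+ mice, with 200 genes changed 4-fold, 200 were recovered with 7 false calls (random seed 11). For CR in BMAd-Pnpla2-/- mice, 198 were recovered with 8 false calls. Between genotypes, 200 were recovered with 15 false calls with AL and 200 with 11 false calls with CR. The members changed by less than 4-fold, and recovery of changes of their size was not tested.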

Additional observations from a re-analysis of the deposited data

Results flagged for a closer look

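In the 12 groups of 4 libraries examined for the 6 genes, 1 value stood apart from the other libraries of its group: Slc2a4 in BMAd-Pnpla2+/+ AL replicate 2, at 43.1 CPM, the highest of the group. Its gap to the next library was 0.916 of the group's range, and the threshold for standing apart, which is lower, is passed by chance in about 1 of 20 groups. The same library had the highest level of skeletal muscle markers among AL libraries, 30.6 CPM in sum, and the part of this in its Slc2a4 level was not tested.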

How the results depend on the processing

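With CR in BMAd-Pnpla2+/+ mice, 5 members were called under each alternative with all libraries and 4 to 5 on leaving out 1. All called genes, 4543 in the main analysis, were 2689 with the compared groups alone, 2295 without the 3 libraries highest in muscle markers, and 2200 to 5959 on leaving out 1 library (2200 without BMAd-Pnpla2+/+ CR replicate 3). In BMAd-Pnpla2-/- mice, all called genes, 2025, were 3098 with DESeq2, 3898 in the deposited matrix, 29 without the muscle-marker libraries, where 1 CR library was left and 0 members were called (Insr 0.74, beside 0.71 with all libraries), and 248 to 2402 on leaving out 1 library (248 without BMAd-Pnpla2-/- CR replicate 3), with 1 to 5 members. Members called fell to 1 without AL replicate 1 or CR replicate 3 and to 2 without AL replicate 3 or CR replicate 2. Irs1 lost its call there with no filter (padj = 0.0733) and with the range of sample numbers (padj = 0.0703).

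Between genotypes, DESeq2 gave 19 genes with AL and 1598 with CR, where the main analysis had 3. Other values with CR were 8 with total counts, 0 with the compared groups alone, 2451 in the matrix, 1 with the range of sample numbers, 0 without the muscle-marker libraries and 0 to 2092 on leaving out 1 library. Members called there were 3 with DESeq2, 3 in the matrix and 0 to 3 on leaving out 1. The interaction gave 60 genes with DESeq2 and 678 in the matrix, which mixes 2 kinds of count. Apart from the matrix and the left-out libraries, the cause of these shifts was not tested.

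Signs turned only for values that were not called, the largest in size being Irs1 between genotypes with AL, at -0.19 in the main analysis. With AL between genotypes, Akt2 was -0.019 with total counts, -0.0025 in the matrix, -0.023 with the replicate block and -0.0044 without the muscle-marker libraries, and Slc2a4 was 0.0049 with no filter, 0.0048 with the compared groups alone, 0.027 with the range of sample numbers and 0.059 without the muscle-marker libraries. The interaction of Pik3r1 was -0.0052 with no filter and -0.23 without the muscle-marker libraries. On leaving out 1 library, these ran from -0.021 to 0.044, -0.035 to 0.058 and -0.080 to 0.13, and Irs1 with AL from -0.48 to 0.00062, Insr with CR from -0.043 to 0.19 and Pik3r1 with CR from -0.19 to 0.023. Total counts moved the median of all genes with CR in knockouts from 0.05 to 0.12.

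Replicate numbers did not pair the libraries: over 19 same-numbered pairs the correlation of deviations had a mean of 0.012 and ran from -0.37 to 0.33. With the replicate block, 4199 and 1794 genes were called with CR in the 2 genotypes, and Irs1 in knockouts had padj = 0.0620.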
